A study of Mus musculus with 9 samples.

Results

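The genes described here make up the core of the transforming growth factor β (TGF-β) system: the ligands Tgfb1, Tgfb2 and Tgfb3, the receptors Tgfbr1, Tgfbr2 and Tgfbr3, and the latent TGF-β binding proteins Ltbp1, Ltbp2, Ltbp3 and Ltbp4. They were taken by symbol, with earlier results of these data known, and all 10 were found among the 24964 gene symbols of the count table and passed the filter on low counts. Gene expression was measured by bulk RNA sequencing in hearts of male C57BL/6JR mice that were 8 weeks old. In the infarct groups the coronary artery known as the left anterior descending artery was tied off under isoflurane anaesthesia through a left thoracotomy, and hearts were taken 28 d after myocardial infarction (MI 28 d, 3 mice) or 7 d after it (MI 7 d, 3 mice). Sham mice (3) had the same surgery with no ligation. The labels name the heart but not which region was taken, and the time of the sham harvest is not given in the sources used here. No genetic alteration is named for any group.

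TGF-β is secreted in an inactive form, in which the mature cytokine stays wrapped in its own propeptide, and a latent TGF-β binding protein tethers this complex to the extracellular matrix. Integrins, thrombospondin and proteases release the cytokine, which binds the type II receptor Tgfbr2. Tgfbr2 then activates the type I receptor Tgfbr1, and Smad proteins carry the signal to the nucleus. After infarction the pathway is known for turning fibroblasts into matrix-producing myofibroblasts and for restraining inflammation as a scar forms.

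Each gene's position was taken from the GENCODE annotation of GRCm38, and all 10 are annotated as protein-coding. Tgfb1 lies on chromosome 7 (25687002 to 25705077, plus strand), Tgfb2 on chromosome 1 (186622792 to 186705989, minus strand) and Tgfb3 on chromosome 12 (86056745 to 86079041, minus strand). Tgfbr1 lies on chromosome 4 (47353222 to 47414931, plus strand), Tgfbr2 on chromosome 9 (116084293 to 116175360, minus strand) and Tgfbr3 on chromosome 5 (107106570 to 107289629, minus strand). Ltbp1 lies on chromosome 17 (75005568 to 75392512, plus strand), and Ltbp2 lies on chromosome 12 (84783212 to 84876532, minus strand). Ltbp3 lies on chromosome 19 (5740904 to 5758532, plus strand), and Ltbp4 lies on chromosome 7 (27305136 to 27337692, minus strand).

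Promoter windows of the RefSeq GRCm38.p6 annotation, from 250 bases before a transcript start to 50 after it, were found for 8 of the 10 genes, in 12 windows, with none for Tgfb3 and Tgfbr3. Windows of 4 genes with different courses after infarction are shown 5′ to 3′ on the gene's strand, up to base 30 from the start: Tgfb1, which was near its sham level at 28 d, Tgfb2, which stayed high, Ltbp2, which had the largest increase, and Ltbp3, whose window holds an AP-1 match. Capitals mark matches, on either strand, to the motifs named after the sequences.
Tgfb1, chr7:25686752-25687031, plus strand: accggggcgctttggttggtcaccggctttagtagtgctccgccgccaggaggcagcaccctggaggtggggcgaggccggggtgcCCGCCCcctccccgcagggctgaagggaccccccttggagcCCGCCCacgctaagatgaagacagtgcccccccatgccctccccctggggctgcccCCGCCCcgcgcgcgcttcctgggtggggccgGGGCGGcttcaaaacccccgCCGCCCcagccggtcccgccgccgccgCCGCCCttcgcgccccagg
Tgfb2, chr1:186705960-186706239, minus strand: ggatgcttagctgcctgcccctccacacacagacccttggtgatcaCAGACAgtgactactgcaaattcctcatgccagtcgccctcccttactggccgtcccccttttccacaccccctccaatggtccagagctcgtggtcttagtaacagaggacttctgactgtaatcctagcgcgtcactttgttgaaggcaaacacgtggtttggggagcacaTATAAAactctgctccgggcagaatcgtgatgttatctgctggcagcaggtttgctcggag
Ltbp2, chr12:84876462-84876741, minus strand: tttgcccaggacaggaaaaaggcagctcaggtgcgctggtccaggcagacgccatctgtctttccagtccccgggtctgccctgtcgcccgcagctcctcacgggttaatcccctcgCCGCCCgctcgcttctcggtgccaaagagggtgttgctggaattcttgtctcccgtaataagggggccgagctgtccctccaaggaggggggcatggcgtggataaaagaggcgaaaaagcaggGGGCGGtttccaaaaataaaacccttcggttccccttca
Ltbp3, chr19:5740650-5740929, plus strand: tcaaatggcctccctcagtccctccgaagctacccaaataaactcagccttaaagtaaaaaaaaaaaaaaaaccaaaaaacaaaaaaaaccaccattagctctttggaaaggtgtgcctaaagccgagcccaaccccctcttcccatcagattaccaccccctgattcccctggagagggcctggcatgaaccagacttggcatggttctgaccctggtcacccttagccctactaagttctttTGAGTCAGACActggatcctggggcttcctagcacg

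The motifs searched were the TATA box (TATAAA), the GC box (GGGCGG), the AP-1 site (TGANTCA), the cAMP response element (TGACGTCA), the core of the Smad-binding CAGA box (CAGACA) and the Smad palindrome (GTCTAGAC). Among all 32851 promoter windows of the same length, TATAAA was found in 13.6%, GGGCGG in 35.7%, TGANTCA in 7.81%, TGACGTCA in 1.79%, CAGACA in 21% and GTCTAGAC in 0.213%. The Tgfb1 window had a GC content of 77%, against a median of 52.7% over all windows, and held 6 GC boxes and no TATAAA. The Tgfb2 window had a GC content of 54.3% and held a TATAAA that began at base -31 from the start and a CAGACA that began at base -204. The Ltbp2 window held 2 GC boxes. In the Ltbp3 window an AP-1 match beginning at base -6 and a CAGACA beginning at base -1 shared 2 bases. These matches describe the letters of the windows and are not measurements of binding.

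The libraries held 15300344 to 15770389 counts at MI 28 d, 18355720 to 19238101 at MI 7 d and 12351525 to 13629120 in sham hearts. A single gene of the 10 had between 175 counts, for Tgfb2 in a sham heart, and 29478 counts, for Ltbp2 in a MI 7 d heart. Levels are in CPM, read counts scaled to the library total scaled by TMM factors (trimmed mean of M-values), and fold changes, standard errors (SE) and adjusted p-values come from edgeR's quasi-likelihood test, adjusted by Benjamini-Hochberg across the 14347 genes tested, with a threshold of 0.05. The sham hearts were far more alike than the infarcted ones, with a biological coefficient of variation of 24.1% at MI 28 d, 17% at MI 7 d and 2.77% in sham hearts. In all hearts the cardiomyocyte markers were abundant (Myh6 and 5 others, 34187.7 to 59107.1 CPM in sum at MI 28 d, 16380.2 to 20701.9 CPM at MI 7 d and 98101.0 to 102189.8 CPM in sham hearts). Replicates 1 and 3 of MI 28 d and replicate 3 of MI 7 d stood apart in the adipocyte gene Adipoq, with 128, 134 and 244 CPM by library total alone, against at most 3.43 CPM in the other 6 libraries.

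At 28 d, 7 of the 10 genes were higher than in sham hearts and 0 were lower, and 3 did not pass (Tgfb1, Tgfbr3 and Ltbp1). Of all tested genes 29.5% were called higher and 25.6% lower in this comparison. At 7 d, 8 of the 10 were higher than in sham hearts and 0 were lower, where 39% of all tested genes were called higher and 35.4% lower. Tgfbr3 and Ltbp1 were the 2 genes not called at 7 d. Between the infarct groups, 1 gene was higher at 28 d than at 7 d (Tgfbr3), 6 were lower, and 3 did not pass (Tgfb2, Ltbp1 and Ltbp4), against 29.1% of all tested genes called higher and 26.1% called lower. The median log2 fold change of the 10 genes was 1.11 at 28 d against sham and 1.94 at 7 d against sham, where the medians over all tested genes were 0.05 and 0.06. It was -0.68 for 28 d against 7 d, where that over all tested genes was 0.03. Over all tested genes the counts were 4233 higher and 3673 lower at 28 d against sham and 5602 higher and 5074 lower at 7 d against sham. With library size alone in place of TMM they were 6479 and 2278 at 28 d and 7410 and 3587 at 7 d, while 8 of the 10 genes were called higher and 0 lower in each. Without the 3 Adipoq-rich libraries, 8 of the 10 were higher and 0 lower at 28 d against sham, 8 higher and 1 lower (Tgfbr3) at 7 d against sham, and 1 higher and 6 lower at 28 d against 7 d. Both comparisons with sham share the same sham hearts, and the infarct comparison shares hearts with each of them. Groups whose ranges did not overlap were common over all tested genes. That held for 66.4% of them at 28 d against sham, 80.8% at 7 d against sham and 59.8% at 28 d against 7 d. It held for 8, 10 and 7 of the 10 genes in the same order.

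**Figure D1:**
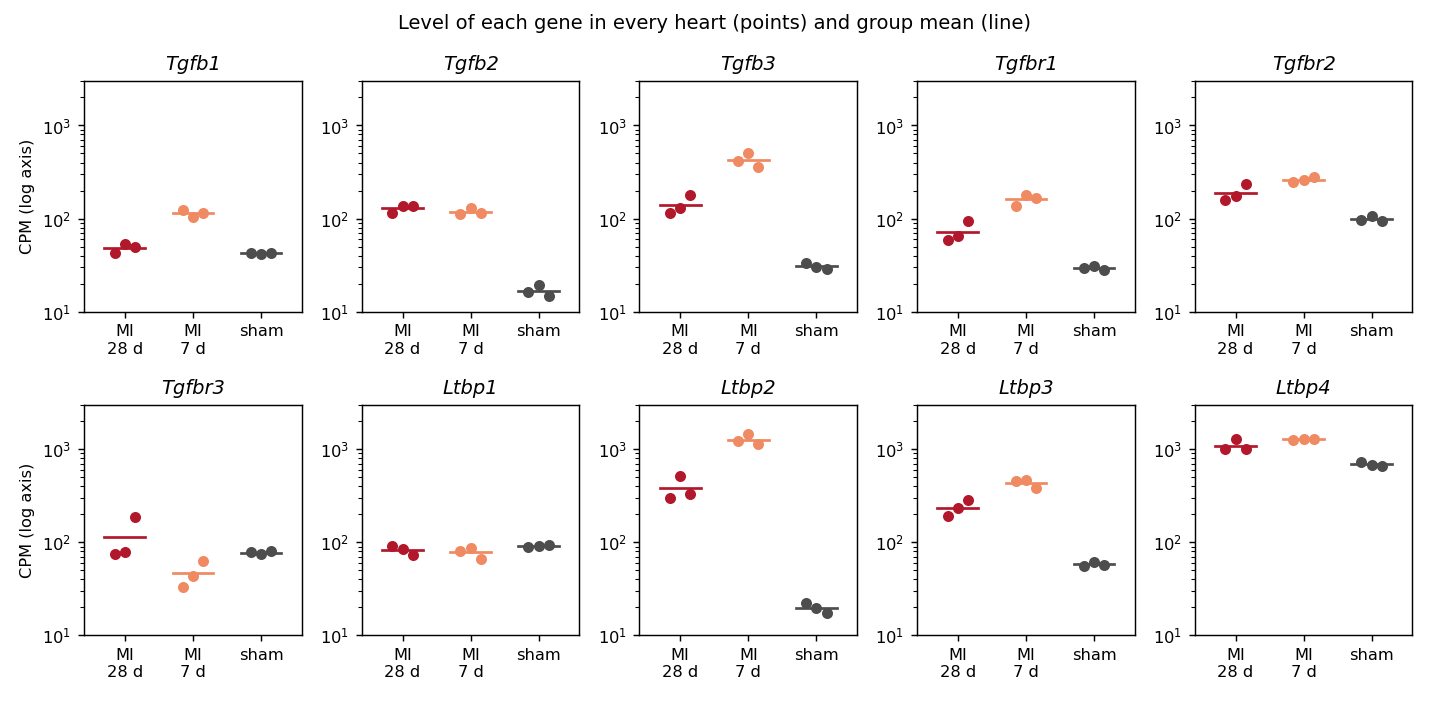
Level of each of the 10 genes in CPM (log axis) in every heart, with MI 28 d, MI 7 d and sham from left to right, 1 point per heart and a line at the group mean. Ltbp2 shows the widest spacing between groups (300 to 515 CPM at MI 28 d, 1124.0 to 1459.4 CPM at MI 7 d and 17.2 to 22.1 CPM in sham hearts), while the Ltbp1 points of all groups lie between 66.3 and 93 CPM.

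The 3 ligand genes followed 3 different courses. Tgfb1, the isoform most studied in fibrosis, had 43.1, 53.8 and 49.2 CPM at MI 28 d, 124, 103 and 116 CPM at MI 7 d, and 42.6, 41.9 and 42.7 CPM in sham hearts. Every MI 7 d heart was above all others, while the MI 28 d hearts lay close above the narrow sham range. The log2 fold change was 0.20 ± 0.10 (SE) at 28 d against sham, which did not pass (adjusted p = 0.107), and 1.43 ± 0.10 at 7 d against sham (adjusted p = 1.07e-06, n = 3 each, edgeR). At 28 d Tgfb1 was lower than at 7 d by a log2 fold change of -1.23 ± 0.10 (adjusted p = 1.1e-05, edgeR). Without replicate 1 of MI 28 d the difference from sham at 28 d passed, with a log2 fold change of 0.27 (adjusted p = 0.0286, edgeR), and it passed without the Adipoq-rich libraries too (0.33, adjusted p = 0.036), where 1 MI 28 d heart is left and is assumed to vary like the others.

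Tgfb2, an isoform known for its part in heart development and in the transition of endothelial and epicardial cells to mesenchyme, had 115, 138 and 135 CPM at MI 28 d, 112, 129 and 115 CPM at MI 7 d, and 16.4, 19.3 and 14.8 CPM in sham hearts. The infarct groups overlapped each other, and both lay far above the sham hearts. The increase over sham was 7.67-fold at 28 d (log2 fold change 2.94 ± 0.12, adjusted p = 1.08e-06, edgeR) and 7.06-fold at 7 d (2.82 ± 0.12, adjusted p = 1.02e-07). The difference of 28 d from 7 d was 0.12 ± 0.11 on the log2 scale and did not pass (adjusted p = 0.373, edgeR). Tgfb2 was the only ligand gene for which the infarct groups were not called different.

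Tgfb3, an isoform known for palate closure and scar formation, had 114, 129 and 178 CPM at MI 28 d, 414, 510 and 359 CPM at MI 7 d, and 33.6, 29.9 and 28.5 CPM in sham hearts. The 3 groups did not overlap. The increase over sham was 4.58-fold at 28 d (log2 fold change 2.20 ± 0.19, adjusted p = 3.11e-05, edgeR) and 13.9-fold at 7 d (3.80 ± 0.20, adjusted p = 2.62e-07). At 28 d the level was lower than at 7 d by a log2 fold change of -1.60 ± 0.18 (adjusted p = 7.65e-05, edgeR).

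Among the receptors, the signalling pair Tgfbr1 and Tgfbr2 rose at both times, and the co-receptor Tgfbr3 did not follow them. Tgfbr1, the type I kinase that phosphorylates Smads, had 58.9, 64.8 and 93.9 CPM at MI 28 d, 135, 179 and 168 CPM at MI 7 d, and 29.8, 30.6 and 27.8 CPM in sham hearts. The 3 groups did not overlap. Its log2 fold change was 1.30 ± 0.18 at 28 d against sham (adjusted p = 0.00031, edgeR) and 2.45 ± 0.18 at 7 d against sham (adjusted p = 1.55e-06), and -1.14 ± 0.17 at 28 d against 7 d (adjusted p = 0.000367).

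Tgfbr2, the type II kinase that binds the ligand first, had 157, 174 and 235 CPM at MI 28 d, 249, 260 and 278 CPM at MI 7 d, and 96.4, 107 and 94.9 CPM in sham hearts. The highest MI 28 d heart came close to the lowest MI 7 d heart, and both infarct groups were above the sham hearts. Its log2 fold change was 0.92 ± 0.14 at 28 d against sham (adjusted p = 0.000568, edgeR) and 1.40 ± 0.14 at 7 d against sham (adjusted p = 1.21e-05). The difference of 28 d from 7 d was -0.48 ± 0.14 (adjusted p = 0.0158, edgeR), and without replicate 2 of MI 28 d it was -0.42 and did not pass (adjusted p = 0.0556).

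Tgfbr3, or betaglycan, a membrane proteoglycan that presents TGF-β ligands, Tgfb2 above all, to the signalling receptors, had 74.5, 77.8 and 188 CPM at MI 28 d, 33.1, 43.2 and 63.3 CPM at MI 7 d, and 77.7, 75 and 79.7 CPM in sham hearts. All MI 7 d hearts were below all sham hearts, 2 of the MI 28 d hearts were at the sham level, and replicate 3 of MI 28 d was far above every other heart. The difference from sham did not pass at 28 d (log2 fold change 0.55 ± 0.35, adjusted p = 0.204, edgeR) or at 7 d (-0.74 ± 0.35, adjusted p = 0.0826). At 28 d the level was higher than at 7 d by 1.29 ± 0.35 (adjusted p = 0.0115, edgeR), and without replicate 3 of MI 28 d by 0.71 (adjusted p = 0.0128). Without that library the difference from sham at 28 d was -0.02 (adjusted p = 0.932, edgeR), and at 7 d Tgfbr3 passed as lower than sham (-0.74, adjusted p = 0.00446). Without replicate 3 of MI 7 d it also passed as lower than sham at 7 d (-1.02, adjusted p = 0.0357, edgeR).

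The libraries with the highest Tgfbr3 in each infarct group were also those with the highest summed level of the 6 epicardial and mesothelial markers. That sum was 113, 135 and 783 CPM at MI 28 d, 26.4, 58.6 and 146 CPM at MI 7 d, and 7.5, 8.83 and 9.21 CPM in sham hearts, in the order of the replicates. Its defining marker Upk3b, a uroplakin of mesothelial cells, had 43.7 to 293 CPM at MI 28 d, 5.44 to 46.6 CPM at MI 7 d and 0.349 to 0.93 CPM in sham hearts. The 6 adipocyte markers summed to 1543.6, 241 and 1256.3 CPM at MI 28 d, 165, 164 and 2187.6 CPM at MI 7 d, and 604 to 619 CPM in sham hearts. In sham hearts nearly all of this sum was Fabp4 (594 to 614 CPM), a fatty acid binding protein that endothelial cells also express. The other 5 markers, a sum chosen after the values were seen, had 1027.3, 4.4 and 812 CPM at MI 28 d, 2.55, 28 and 1433.9 CPM at MI 7 d, and 5.23, 9.2 and 5.24 CPM in sham hearts. Replicate 1 of MI 28 d was high in these and not in Tgfbr3. The match was not particular to the epicardial and mesothelial markers. Replicate 3 was also highest of its group in the macrophage sum (393, 413 and 571 CPM at MI 28 d, 1585.2, 1572.2 and 1894.6 CPM at MI 7 d). The same held for the platelet sum (18.4, 13.4 and 25.4 CPM, and 25.6, 20.4 and 28.5 CPM). Its fibroblast sum was the highest at MI 28 d (4501.0 CPM) and the lowest at MI 7 d (22021.9 CPM). The part of any of these cell types in the Tgfbr3 values was not tested.

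**Figure D2:**
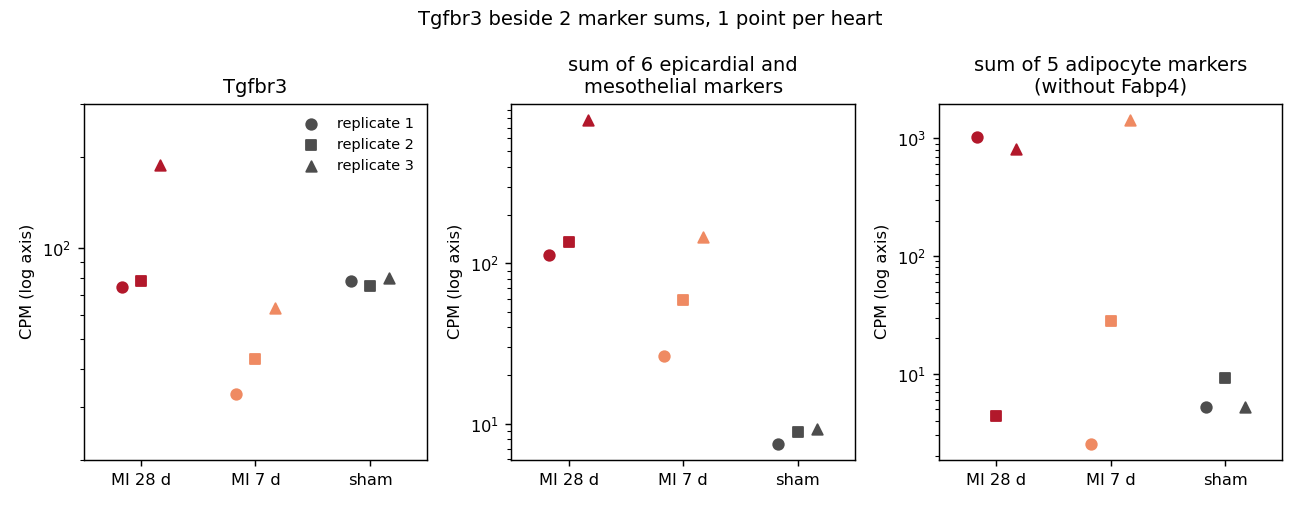
CPM (log axes) of Tgfbr3, of the summed epicardial and mesothelial markers and of the summed adipocyte markers other than Fabp4 in every heart, with MI 28 d, MI 7 d and sham from left to right and the replicate number as the symbol. Replicate 3 of MI 28 d is highest both in Tgfbr3 (188 CPM) and in the epicardial and mesothelial sum (783 CPM), and replicate 3 of MI 7 d is highest of its group in both (63.3 and 146 CPM).

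The binding proteins held both the largest increase and the flattest course of the 10 genes. Ltbp2, a matrix protein of elastic microfibrils that carries the family name but, unlike its relatives, is not known to bind latent TGF-β, had 300, 515 and 334 CPM at MI 28 d, 1215.2, 1459.4 and 1124.0 CPM at MI 7 d, and 22.1, 19.9 and 17.2 CPM in sham hearts. The 3 groups were far apart. The increase over sham was 19.4-fold at 28 d (log2 fold change 4.28 ± 0.23, adjusted p = 3.14e-06, edgeR) and 64.2-fold at 7 d (6.00 ± 0.25, adjusted p = 8.56e-08). At 28 d the level was lower than at 7 d by a log2 fold change of -1.72 ± 0.20 (adjusted p = 9.93e-05, edgeR).

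Ltbp3, which helps secrete latent TGF-β and is known for its role in bone and teeth, had 192, 232 and 285 CPM at MI 28 d, 452, 462 and 386 CPM at MI 7 d, and 56.3, 61 and 56.8 CPM in sham hearts. The groups did not overlap. Its log2 fold change was 2.03 ± 0.15 at 28 d against sham (adjusted p = 1.23e-05, edgeR), 2.90 ± 0.15 at 7 d against sham (adjusted p = 2.47e-07) and -0.87 ± 0.14 at 28 d against 7 d (adjusted p = 0.000562).

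Ltbp4, a binding protein needed for elastic fibre assembly, had 995, 1277.4 and 999 CPM at MI 28 d, 1239.7, 1301.1 and 1287.6 CPM at MI 7 d, and 724, 678 and 666 CPM in sham hearts. Both infarct groups were above the sham hearts, and they overlapped each other through replicate 2 of MI 28 d. The increase was modest, with a log2 fold change of 0.66 ± 0.11 at 28 d against sham (adjusted p = 0.00109, edgeR) and 0.89 ± 0.11 at 7 d against sham (adjusted p = 6.52e-05). The difference of 28 d from 7 d was -0.23 ± 0.11 and did not pass (adjusted p = 0.118, edgeR), and without replicate 2 of MI 28 d it passed (-0.35, adjusted p = 0.0202).

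Ltbp1, the binding protein most studied as a carrier of latent TGF-β in matrix, had 91.7, 84.1 and 72.8 CPM at MI 28 d, 81.3, 87.9 and 66.3 CPM at MI 7 d, and 89.1, 91.5 and 93 CPM in sham hearts. The infarct groups overlapped each other, and the MI 7 d hearts were all just below the sham hearts. No comparison passed, with log2 fold changes of -0.14 ± 0.12 at 28 d against sham (adjusted p = 0.332, edgeR), -0.22 ± 0.12 at 7 d against sham (adjusted p = 0.114) and 0.08 ± 0.11 at 28 d against 7 d (adjusted p = 0.59). With library size alone in place of TMM these were 0.10, 0.12 and -0.01, so the sign depended on the scaling. At 7 d against sham that was the only alternative with the opposite sign. Without replicate 2 of MI 7 d the difference at 7 d passed as lower than sham (-0.30, adjusted p = 0.0478, edgeR), and with voom it also passed as lower.

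**Figure D3:**
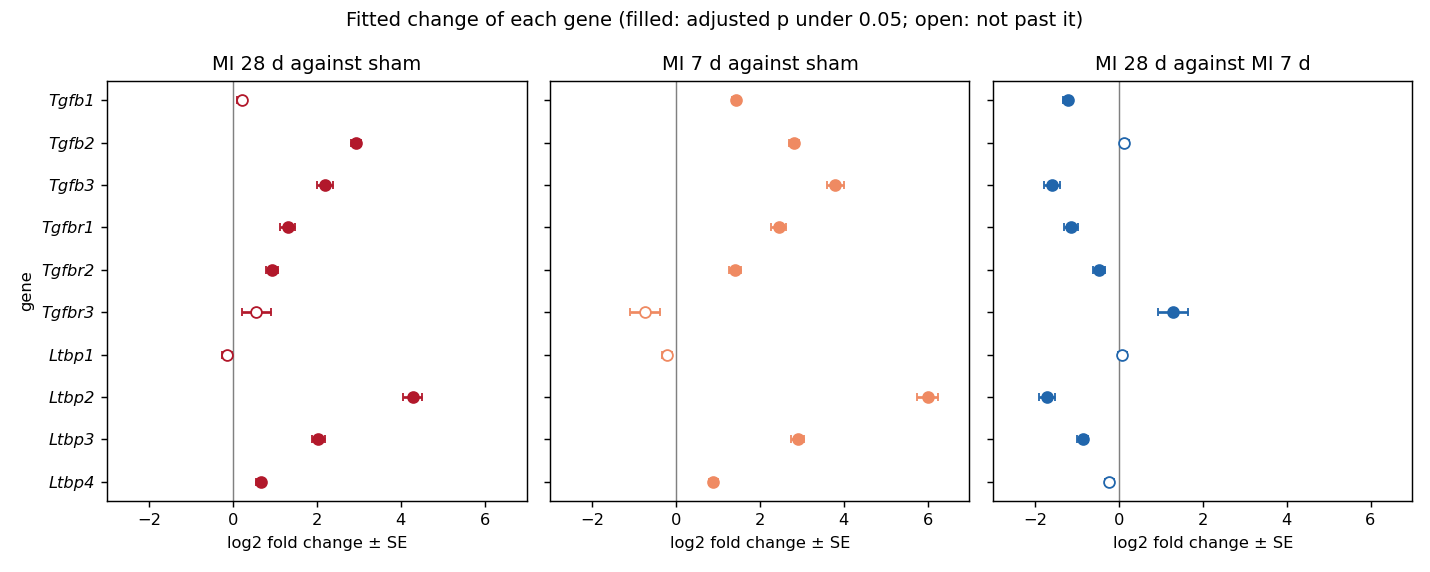
Log2 fold change ± SE of each of the 10 genes for MI 28 d against sham, MI 7 d against sham and MI 28 d against MI 7 d, with filled points past an adjusted p of 0.05. Tgfb2 is near 2.9 in both comparisons with sham and near 0 between the infarct groups, and Tgfbr3 is the gene on the positive side past the threshold at 28 d against 7 d (1.29).

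Because longer genes collect more reads, levels were compared between genes only after division by the exon length of each gene in kilobases (CPM per kb). Ltbp4 had the highest level in every group, with 169 ± 25 CPM per kb at MI 28 d, 197 ± 4.99 at MI 7 d and 107 ± 4.78 in sham hearts (SD, n = 3 each). Ltbp2 was second in both infarct groups, with 46.8 ± 14.1 CPM per kb at MI 28 d and 155 ± 21.2 at MI 7 d, and last of the 10 in sham hearts with 2.41 ± 0.296 CPM per kb. Its range overlapped that of Tgfb3, the next gene, at both times (41.5 ± 9.89 CPM per kb at MI 28 d and 126 ± 22.6 at MI 7 d), and in sham hearts it overlapped that of Tgfb2 (2.91 ± 0.396). At MI 28 d the order went on with Ltbp3, Tgfbr2, Tgfb2, Tgfbr3, Tgfbr1, Tgfb1 and Ltbp1, and from Ltbp3 downwards each gene's range over the hearts overlapped that of the next. At MI 7 d it went on with Ltbp3, Tgfbr2, Tgfbr1, Tgfb1, Tgfb2, Ltbp1 and Tgfbr3, with overlap between Tgfbr1 and Tgfb1, Tgfb1 and Tgfb2, and Ltbp1 and Tgfbr3. In sham hearts the order after Ltbp4 was Tgfbr2, Tgfbr3, Tgfb3, Ltbp1, Tgfb1, Ltbp3, Tgfbr1, Tgfb2 and Ltbp2. There, Tgfbr2 overlapped Tgfbr3 (12.1 ± 0.789 and 11.8 ± 0.357 CPM per kb), Tgfb3 overlapped Ltbp1, and Ltbp1 overlapped Tgfb1.

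The make-up of each family is given as shares of its summed level per kb. The summed ligand level was 73.5 ± 11.8 CPM per kb at MI 28 d, 169 ± 22.5 at MI 7 d and 20.4 ± 0.89 in sham hearts. Tgfb1 made up 13.3 ± 1.72% of it at MI 28 d, 13.6 ± 2.64% at MI 7 d and 41.3 ± 1.97% in sham hearts. Tgfb2 made up 30.6 ± 2.99% at MI 28 d, 12.2 ± 0.994% at MI 7 d and 14.3 ± 1.75% in sham hearts. Tgfb3 made up 56.1 ± 4.7% at MI 28 d, 74.2 ± 3.37% at MI 7 d and 44.4 ± 2.08% in sham hearts. So Tgfb1 and Tgfb3 shared the sham ligand pool about equally, and Tgfb3 held most of it at 7 d. By counts without length, Tgfb1 was ahead in sham hearts, with 47.2% against 34.1% for Tgfb3.

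Of the receptors, Tgfbr3 made up 32.2 ± 6.86% at MI 28 d, 11 ± 2.6% at MI 7 d and 41.6 ± 2.13% in sham hearts, again per kb. Tgfbr1 made up 22 ± 1.7% at MI 28 d, 38.5 ± 2.76% at MI 7 d and 15.8 ± 0.53% in sham hearts, and Tgfbr2 was between 42.6% and 50.5% in all groups. Ltbp4 made up 67.7 ± 1.9% of the binding proteins at MI 28 d, 48.6 ± 2.93% at MI 7 d and 86 ± 0.592% in sham hearts. Ltbp2 made up 18.5 ± 2.54% at MI 28 d, 37.9 ± 2.54% at MI 7 d and 1.94 ± 0.17% in sham hearts. With 3 hearts against 3, a two-sided exact permutation test of a share cannot go below p = 0.1. That smallest value was reached in 24 of 30 comparisons of shares (0.125 after Benjamini-Hochberg adjustment over the 30), so the shares are a description.

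**Figure D4:**
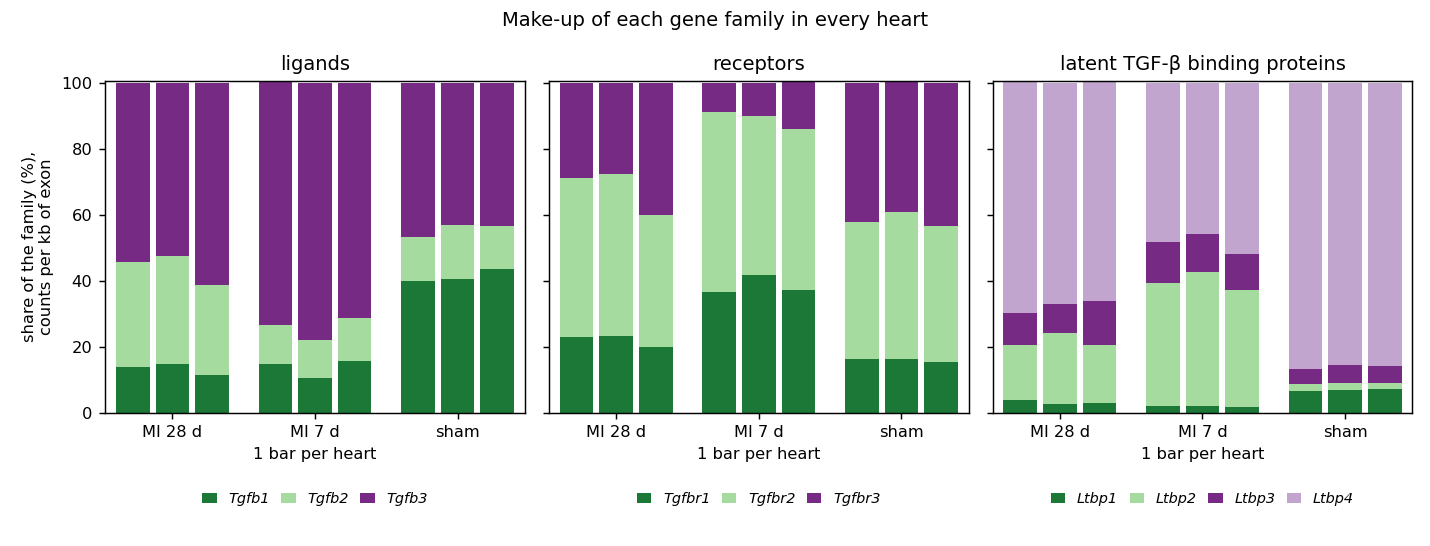
Share of each gene in its family (percent of the summed counts per kb of exon), 1 bar per heart, with MI 28 d, MI 7 d and sham from left to right in each panel. The Tgfb3 segment is widest at MI 7 d (74.2% on average), the Tgfbr3 segment is narrowest there (11%), and the Ltbp2 segment is hardly visible in sham hearts (1.94%).

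Sums of cell type markers also differed between the groups, and not all in the same direction. The 6 fibroblast markers summed to 3020.1 to 4501.0 CPM at MI 28 d, 22021.9 to 29668.6 CPM at MI 7 d and 963 to 1000.2 CPM in sham hearts, and 5 of 6 rose at 28 d and 6 of 6 at 7 d. The 6 macrophage markers summed to 393 to 571 CPM at MI 28 d, 1572.2 to 1894.6 CPM at MI 7 d and 240 to 265 CPM in sham hearts, and again 5 of 6 rose at 28 d and 6 of 6 at 7 d. The 6 cardiomyocyte markers all fell at both times. The endothelial markers summed to 545 to 887 CPM at MI 28 d, 776 to 894 CPM at MI 7 d and 1831.3 to 1893.3 CPM in sham hearts, with 5 of 6 lower at 28 d and 4 of 6 at 7 d. Sums were smaller for platelet markers (13.4 to 25.4, 20.4 to 28.5 and 10.7 to 13.4 CPM at MI 28 d, at MI 7 d and in sham hearts) and for the 5 T cell markers in the table (5.33 to 11.7, 10.6 to 18.1 and 2.27 to 3.77 CPM). Smooth muscle and pericyte markers summed to 4266.8 to 5066.6 CPM at MI 28 d, 3308.0 to 4181.1 CPM at MI 7 d and 3781.3 to 3973.3 CPM in sham hearts, and most of this sum was Des, the muscle desmin that cardiomyocytes also express (means 4013.5, 2730.2 and 2669.0 CPM). Of these 6 markers, 3 rose and 1 fell at 28 d, and 2 rose and 1 fell at 7 d. All the marker counts given here stand beside 29.5% of all tested genes called higher and 25.6% lower at 28 d. At 7 d those shares were 39% and 35.4%. Cnn1, a smooth muscle calponin, averaged 14 CPM at MI 28 d, 29.6 CPM at MI 7 d and 2.42 CPM in sham hearts, and Rgs5, a pericyte marker, averaged 373, 391 and 869 CPM. Of the erythroid markers, 4 globin genes were at 0 in every library. In bulk tissue, more cells of a type and more RNA per cell cannot be told apart, and the part of these cell types in the values of the 10 genes was not tested.

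Of 20 genes that release, store or process TGF-β, 13 rose and 2 fell at 28 d against sham (median log2 fold change 0.76). Of all tested genes 29.5% were called higher and 25.6% lower there. At 7 d 16 of the 20 rose and 1 fell (median 1.84), beside 39% and 35.4% of all tested genes. Without the Adipoq-rich libraries 1 fell at 28 d. At 28 d against 7 d, 3 were higher and 14 lower (median -0.97), beside 29.1% and 26.1% of all tested genes. Fn1, the fibronectin that anchors latent complexes in matrix, averaged 991 ± 453 CPM at MI 28 d, 8588.4 ± 1624.0 CPM at MI 7 d and 225 ± 7.11 CPM in sham hearts (SD, n = 3 each), log2 fold changes against sham of 2.14 and 5.25. Thbs1, the thrombospondin that can activate latent TGF-β, averaged 229 ± 29.2 CPM at MI 28 d, 1068.9 ± 513 CPM at MI 7 d and 45.8 ± 3.96 CPM in sham hearts (2.32 and 4.54). The matrix metalloproteases Mmp2 and Mmp14 had log2 fold changes of 1.67 and 1.08 at 28 d and of 3.03 and 3.91 at 7 d.

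Itgb6, the β subunit of an integrin that activates latent TGF-β on epithelial cells, moved the other way, with 6.07 ± 4 CPM at MI 28 d, 1.91 ± 0.0745 CPM at MI 7 d and 41.9 ± 2.57 CPM in sham hearts (log2 fold changes -2.80 ± 0.35 and -4.45 ± 0.39, adjusted p = 0.000224 and 4.42e-06, edgeR). Among genes of other integrin subunits with this activity, chosen after their values were seen, Itgav was higher by 0.71 at 28 d and 1.46 at 7 d. Itgb5 was higher by 1.14 and 2.32, and Itgb3 by 1.34 and 2.83. Itgb8 was near the floor, with means of 1.51 CPM at MI 28 d, 2.51 CPM at MI 7 d and 0.831 CPM in sham hearts. Its range overlapped that of sham hearts at both times. It did not pass at 28 d (0.87, adjusted p = 0.189, edgeR) and passed at 7 d (1.59, adjusted p = 0.0171, edgeR). The rise at 7 d did not pass without replicate 1 or replicate 3 of sham, or without replicate 2 of MI 7 d. Furin, the protease that cleaves the propeptide, fell by 0.32 on the log2 scale at 28 d (adjusted p = 0.00917, edgeR) and did not pass at 7 d (0.19, adjusted p = 0.0609). Its fall at 28 d did not pass with library size alone (-0.07, adjusted p = 0.458, edgeR) or without the Adipoq-rich libraries (-0.20). At 7 d Furin passed as higher with library size alone (0.52, adjusted p = 0.000218, edgeR) and with voom (0.19, adjusted p = 0.0208). The same held with the stricter filter (0.21, adjusted p = 0.0322, edgeR) and with only the libraries compared (0.20, adjusted p = 0.0221, edgeR). It held too without replicate 3 of MI 28 d (0.19, adjusted p = 0.043, edgeR).

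Of 15 accessory receptors and binding proteins, 8 rose and 3 fell at 28 d (median 0.47), beside 29.5% and 25.6% of all tested genes. At 7 d 9 rose and 2 fell (median 0.37), beside 39% and 35.4% of all tested genes. At 28 d against 7 d, 2 were higher and 6 lower (median -0.23), beside 29.1% and 26.1% of all tested genes. Without the Adipoq-rich libraries 4 fell at 7 d, and without replicate 2 of MI 7 d 3 were lower at 28 d than at 7 d. The largest increase was in Fmod, fibromodulin, a small matrix proteoglycan that binds TGF-β, with 226 ± 51.7 CPM at MI 28 d, 307 ± 108 CPM at MI 7 d and 4.89 ± 0.559 CPM in sham hearts (log2 fold changes 5.53 ± 0.32 and 5.97 ± 0.32). The related proteoglycan genes Bgn and Dcn rose by 2.23 and 1.75 at 28 d and by 3.51 and 1.03 at 7 d, and Cd109, a membrane protein that dampens TGF-β signalling, rose by 1.71 and 3.31. Nrp1, a neuropilin of vessels that also binds TGF-β, fell at both times (-0.93 and -0.84). Nrp2 fell at 28 d (-0.61), and Strap, a receptor-associated inhibitor, fell by 0.37 at 28 d and by 0.77 at 7 d. The fall of Strap at 28 d did not pass with library size alone (-0.13, adjusted p = 0.215, edgeR), nor the rise of Dcn at 7 d without replicate 1 or without replicate 2 of the sham hearts (adjusted p = 0.0531 and 0.053, edgeR).

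Of 18 Smads and their regulators, 8 rose and 4 fell at 28 d (median 0.20), where 29.5% and 25.6% of all tested genes were called higher and lower. At 7 d also 8 rose and 4 fell (median 0.07), beside 39% and 35.4% of all tested genes. Scaled by library size alone, 13 were called higher at 7 d and 2 lower at 28 d. With that scaling, 7410 of the 14347 tested genes were called higher at 7 d and 2278 lower at 28 d. In the fit with TMM, 4 were higher and 4 lower at 28 d against 7 d (median -0.07), beside 29.1% and 26.1% of all tested genes. The genes of this list that rose most are feedback inhibitors or repressors of the pathway. Pmepa1, which blocks Smad activation at the receptor, averaged 148 ± 16.1 CPM at MI 28 d, 323 ± 14.6 CPM at MI 7 d and 51.5 ± 2.82 CPM in sham hearts (log2 fold changes 1.52 and 2.65). Tgif1, a Smad corepressor, had log2 fold changes of 1.32 at 28 d and 2.97 at 7 d, and its relative Tgif2 rose at 7 d by 1.60. Skil, another corepressor, rose by 1.04 at 28 d and 1.25 at 7 d. Zfyve9, which brings Smads to the receptor, fell by 0.57 at 28 d and by 1.33 at 7 d. The ubiquitin-related enzyme genes Usp15 and Wwp1 fell by 0.43 and 0.48 at 28 d and by 0.93 and 0.39 at 7 d. With library size alone Wwp1 did not pass at either time (-0.24 and -0.05, adjusted p = 0.0647 and 0.665, edgeR).

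Of 25 genes known as TGF-β targets, 23 rose and 0 fell at 28 d (median 1.71), beside 29.5% and 25.6% of all tested genes. At 7 d 24 rose and 1 fell (median 3.89), beside 39% and 35.4% of all tested genes. At 28 d against 7 d, 1 was higher and 18 lower (median -1.12), beside 29.1% and 26.1% of all tested genes. The list holds Fn1 of the storage list, Skil, Smad7 and Pmepa1 of the Smad list, and Col1a1, Col1a2 and Postn, which also serve here as fibroblast markers. Comp, a matrix protein of tendon and cartilage, averaged 534 ± 221 CPM at MI 28 d, 713 ± 158 CPM at MI 7 d and 11.8 ± 2.02 CPM in sham hearts (log2 fold changes 5.50 ± 0.34 and 5.92 ± 0.34). Its difference of 28 d from 7 d did not pass (-0.42, adjusted p = 0.22, edgeR). Without replicate 2 of MI 28 d Comp passed as lower at 28 d than at 7 d (-0.80, adjusted p = 0.0114, edgeR).

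Other targets were much lower at 28 d than at 7 d. Lox, which cross-links collagen, averaged 96.8 ± 13.1 CPM at MI 28 d, 1240.7 ± 206 CPM at MI 7 d and 19.4 ± 0.827 CPM in sham hearts. Cthrc1, a secreted protein of activated fibroblasts, averaged 19.4 ± 4.8 CPM at MI 28 d, 383 ± 35.4 CPM at MI 7 d and 4.06 ± 0.678 CPM in sham hearts. Their log2 fold changes for 28 d against 7 d were -3.68 (Lox) and -4.30 (Cthrc1). Nox4, an oxidase induced in myofibroblasts, rose by 3.49 at 28 d and 4.69 at 7 d. Id1, which BMP signals induce, fell by 0.44 at 7 d (adjusted p = 0.00911, edgeR) and did not pass at 28 d (0.02, adjusted p = 0.926). The fall at 7 d did not pass with library size alone (-0.11, adjusted p = 0.496, edgeR).

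**Figure D5:**
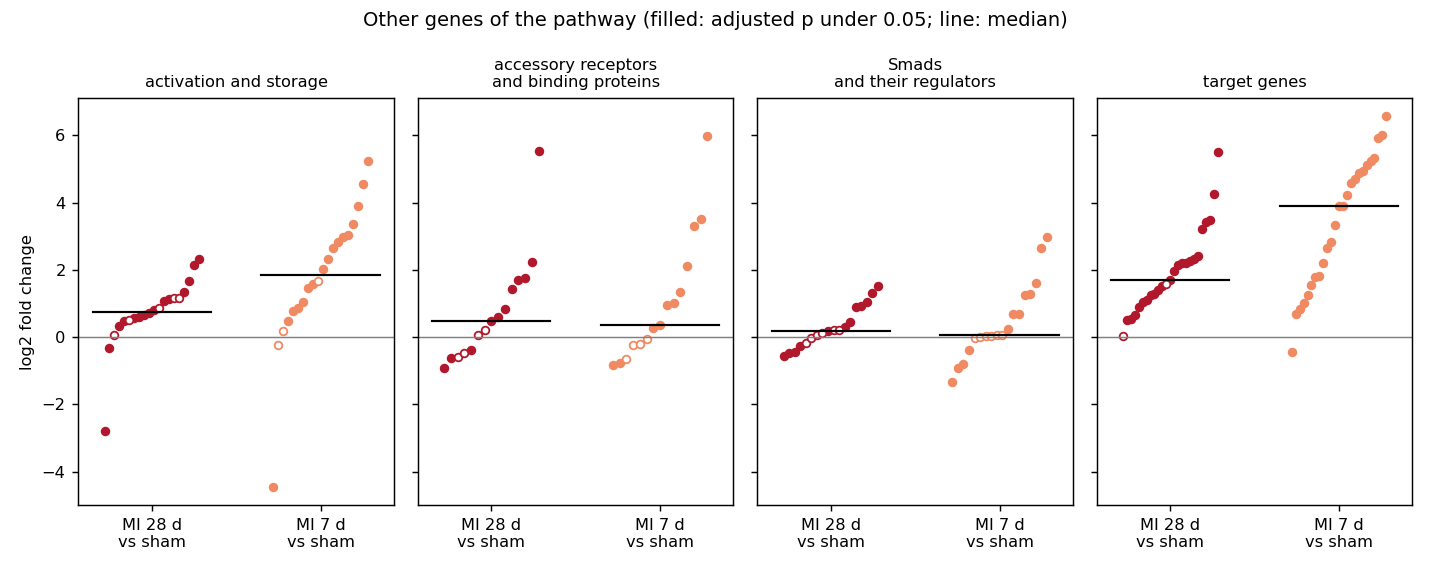
Log2 fold change of each gene of the 4 lists for MI 28 d against sham (left of each panel) and MI 7 d against sham (right), 1 point per gene, filled past an adjusted p of 0.05, with a line at the median. The target genes lie highest (medians 1.71 at 28 d and 3.89 at 7 d). The Smads and their regulators have medians of 0.20 and 0.07, with members at 7 d from -1.33 (Zfyve9) to 2.97 (Tgif1). Of these 18 genes, 12 are past the threshold at each time. Of all tested genes, 29.5% were called higher and 25.6% lower at 28 d, and 39% and 35.4% at 7 d.

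For each of the 10 genes, the tested genes whose course was most like it were found by the root mean square (RMS) difference of log2 CPM from the sham mean over the 9 libraries, among 12078 genes. With the mean absolute difference in place of the RMS, 7 of the 10 genes kept 2 of their 3 nearest genes, and Tgfb2, Tgfbr3 and Ltbp2 kept all 3. Ltbp2 was closest to Sfrp2, a secreted Wnt modulator (RMS difference 0.16), and to the collagen genes Col8a2 (0.20) and Col12a1 (0.35). Sfrp2 averaged 283 CPM at MI 28 d, 891 CPM at MI 7 d and 13.7 CPM in sham hearts. Tgfb3 was closest to Cercam (0.15), Ephb2 and Gadd45b (0.18 each). Tgfb1 was closest to Coro1c, Colgalt1 and Ccdc102a (0.10 each), of which Colgalt1 encodes a collagen galactosyltransferase. The course of Tgfb2 had the least close match of the ligands, Gpx3, a secreted glutathione peroxidase (0.23, with 1191.0 CPM at MI 28 d, 1327.5 CPM at MI 7 d and 200 CPM in sham hearts), followed by Gbp8 and Lingo1 (0.25 each).

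Tgfbr1 was closest to Slc26a11 (0.08), Plxdc2 (0.11) and Dock10 (0.14), and Tgfbr2 to Cpne8 and Abi1 (0.07 each) and Sgce (0.09). Tgfbr3 was closest to Rab6b and Enpp5 (0.17 each) and Fzd3 (0.21), all of which averaged less at MI 7 d than in the other groups. Ltbp1 was closest to Apbb2, Icmt and Eri3 (0.08 each), Ltbp3 to Clu and Traf1 (0.14 each) and Tlr2 (0.16), and Ltbp4 to Gab2 (0.06), Kif3b (0.08) and Ankrd27 (0.10).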

How the data were processed

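Whole hearts or parts of hearts (the labels do not say which) of 9 mice were sequenced, 3 in each group, grouped and numbered by their titles. RNA was extracted with TRIzol and libraries were made with the KAPA RNA HyperPrep kit, per the labels' protocols. The counts deposited by the authors are whole-number reads per gene symbol, not normalized. Trim Galore, STAR, featureCounts and the mm10 build are named without versions, per the submitters' processing notes. Annotation, strand setting and multi-mapping treatment: not given in the sources used here, so reads of genes that overlap on opposite strands cannot be told apart.

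From these counts, edgeR 4.0.16 (R 4.3.3) kept genes by filterByExpr (minimum count 10, minimum total 15), scaled by TMM and fitted a means model to all 9 libraries. Comparisons were tested two-sided by quasi-likelihood, with p adjusted by Benjamini-Hochberg at 0.05, and "rose" and "fell" refer to it. The scripts were tested on simulated data. Replicate libraries differed by more than sampling noise and all were kept. P-values rest on a spread estimated for each gene from all 9 libraries together, not from the compared groups alone. The groups differed in spread (biological coefficient of variation 24.1% at MI 28 d, 17% at MI 7 d and 2.77% in sham hearts). A library outside a comparison therefore bears on its p-value, as for Tgfbr3 at 7 d against sham without replicate 3 of MI 28 d. Depth bears on counting error only. Gene length is the exon union of GENCODE vM21. No sample column was left unused.

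The genes and lists were chosen with earlier results of these data known. Named are all 10 genes, from each list the 3 largest rises and 2 largest falls against sham at each time, the 3 genes most like each, and the markers. Genes outside this rule are said to be so, and a few genes that the rule names are not reported here. A list is described by counts and medians. The alternatives were DESeq2 1.42.0, voom of limma 3.58.1 with group weights, scaling by DESeq2-type size factors or by library size alone, a filter that was absent or stricter (a mean of 2 CPM, and 1 CPM in 3 libraries), fits of the compared groups only, a block by replicate number, a 2-fold threshold, the mean absolute difference for likeness, and fits without each library or without the 3 Adipoq-rich libraries.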

Additional observations from a re-analysis of the deposited data

Results flagged for a closer look

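For 7 of the 10 genes the change after infarction differed between 28 d and 7 d by the test of that difference (edgeR, both times against the same sham hearts). The change at 28 d minus that at 7 d, on the log2 scale, was -1.23 for Tgfb1, -1.60 for Tgfb3, -1.14 for Tgfbr1, -0.48 for Tgfbr2, 1.29 for Tgfbr3, -1.72 for Ltbp2 and -0.87 for Ltbp3. Of all tested genes, 29.1% were called higher and 26.1% lower in the same comparison.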

How the results depend on the processing

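Of the 10 genes, 8 were called higher at 7 d against sham whichever single library was left out (range 8 to 8) and under the other alternatives 7 or 8 were. The count of genes called lower at 7 d, 0 in the fit reported, was 2 with voom and 1 with only the libraries compared, with the replicate block and without the Adipoq-rich libraries, and ranged from 0 to 1 over single libraries left out. The gene was Tgfbr3, with voom also Ltbp1, and without MI 7 d replicate 2 Ltbp1 in place of Tgfbr3. With a 2-fold threshold 4 of the 10 were called higher at 28 d against sham, and 0 higher and 2 lower at 28 d against 7 d. Over all tested genes that threshold gave 2519 higher and 1916 lower at 7 d against sham, 831 and 284 at 28 d against sham, and 537 and 773 at 28 d against 7 d, and the cause is the stricter test itself. Library size alone gave 6479 higher and 2278 lower at 28 d against sham, moving the median of all genes by 0.249 there and by 0.333 at 7 d against sham on the log2 scale.

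The direction changed for genes that were not called: Ltbp1 with library size alone (0.1161 at 7 d against sham, 0.1039 at 28 d against sham, -0.0122 at 28 d against 7 d), and at 28 d against 7 d also without MI 7 d replicate 3 (-0.031), without MI 28 d replicate 1 (-0.0061) and without the Adipoq-rich libraries (-0.0127). Over single libraries left out, Ltbp1 at 28 d against 7 d ranged from -0.031 to 0.1654, and Tgfbr3 at 28 d against sham from -0.0247 (without MI 28 d replicate 3) to 0.7725, and Tgfbr3 was -0.0068 without the Adipoq-rich libraries. Ltbp4 at 28 d against 7 d was 0.0036 without them. The cause was not tested. Tgfb1 passed as higher at 28 d against sham with library size alone (0.45, adjusted p = 0.00619, edgeR). The deviations of same-numbered libraries from their group means had correlations from -0.091 to 0.304, not all above 0.1, and in 2 of 9 pairings a library correlated best with its own number, so the numbers were not taken as pairs. With the replicate block 5554 genes were higher and 5029 lower at 7 d against sham, against 5602 and 5074 without it. Of the lists, the Smads and their regulators had 13 higher at 7 d and 2 lower at 28 d against sham with library size alone (8 and 4 with TMM), and the storage list had 2 lower at 7 d with voom and without MI 7 d replicate 2 (1 in the report) and 1 lower at 28 d, without Furin, with library size alone and without the Adipoq-rich libraries (2 in the report). With library size alone 0 target genes were lower at 7 d (Id1 in the report). With that scaling, 7410 of the 14347 tested genes were higher at 7 d against sham and 2278 lower at 28 d against sham. With the 2-fold threshold, genes called higher against sham at 28 d and at 7 d were 3 and 11 of the storage list, 3 and 5 of the accessory list, 1 and 4 of the Smad list, and 14 and 20 of the targets. Shares within families moved by more than the spread between hearts in 28 of 30 cases when length was left out.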
